A study of Mus musculus with 18 samples.

Results

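The genes described here encode the proteins of the cytosolic ribosome, and they were followed through the spleens of mice given a high fat diet, a dietary oligosaccharide or a transplant of gut microbes. Members were the table's gene symbols made of Rpl, Rps or Rplp, a number and at most a short suffix (a, x, l, al, l1 or a1), whose mean reached 1 FPKM in any group. FPKM are fragment counts divided by transcript length and by the size of the library. Of 84 symbols with that form, 80 reached this level, out of 12969 genes that did so and 19326 rows in all. They comprise 31 genes of the small, or 40S, subunit (Rps), 46 of the large, or 60S, subunit (Rpl) and the 3 of the P stalk (Rplp0, Rplp1, Rplp2). The 4 that fell short were Rpl39l, Rpl3l, Rpl10l and Rpl32l, whose highest group means were 0.59, 0.57, 0.287 and 0.167 FPKM, and the lowest member inside the limit was Rpl29, with a mean of 4.84 FPKM over all libraries.

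All mice were of the outbred ICR stock and 10 weeks of age, and each of 6 groups gave 3 spleen libraries. Of the 2 groups without the diet, 1 was the control and 1 received AOS, taken here to be alginate oligosaccharide, at 10 mg/kg. The other 4 groups were on the high fat diet (HFD), as the diet alone, with AOS (HFD+AOS), with a faecal microbiota transplant, as FMT is read here, from AOS donors (HFD+AOS-FMT), or with one from control donors (HFD+control-FMT). Whether each library is an animal of its own is not stated in the labels, so a p-value here measures only the spread between these libraries.

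A ribosome reads messenger RNA into protein. Each subunit is built of folded ribosomal RNA clothed with proteins, most of which are needed in equal numbers, and the acidic P stalk of the large subunit recruits the translation factors. Most of these genes begin their transcripts with an unbroken run of C and T, the terminal oligopyrimidine tract, through which mTOR, the nutrient-sensing kinase, controls the translation of all of them together. In the spleen, heavy users of ribosomes include dividing lymphocytes, antibody-secreting plasma cells and young red blood cells.

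Pyrimidine runs near the annotated start were counted from these sequences. RefSeq promoters on build GRCm38.p6 matched 60 of the 80 members. A run of at least 8 pyrimidines (C or T) on the gene's strand, from 30 bases before to 50 after an annotated start, was present in 48 of them, or 80%, against 31.4% of all 27025 genes with such a promoter. Such a run need not lie at the start itself: one that holds the first transcribed base was found in 17 members, or 28.3%, against 4.56% of all genes. In 5 members an annotated start had runs that all ended before that base, and a gene with several starts can enter both counts. The letters CCGGAAG, searched on both strands of the window from 250 bases before to 50 after the start, were present in 40% of the members and 9.93% of all genes. On both strands of that window GGGCGG was found in 63.3% and 38.2%. TATAAA, on the gene's strand in the 50 bases before the start, was found in 1.67% of members and 3.15% of all genes. The lines that follow give 50 bases of 8 members, from 30 before to 20 after the start. Capitals mark the longest pyrimidine run of at least 8, as far as it lies in these 50 bases. The first 6 carry such a run, which begins after the first transcribed base in Rps26 and ends before it in Rpl13, and the last 2, Rps4x and Rpl7l1, are shown because they carry none in the window searched.
Rps27 (chr3:90213629-90213678, minus strand): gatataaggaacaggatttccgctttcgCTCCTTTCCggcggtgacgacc
Rps26 (chr10:128626487-128626536, minus strand): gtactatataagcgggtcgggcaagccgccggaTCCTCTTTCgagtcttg
Rpl27a (chr7:109519165-109519214, plus strand): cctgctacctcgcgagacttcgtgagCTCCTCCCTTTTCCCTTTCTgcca
Rpl13 (chr8:123102320-123102369, plus strand): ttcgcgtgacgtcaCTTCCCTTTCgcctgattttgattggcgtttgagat
Rpl38 (chr11:114668550-114668599, plus strand): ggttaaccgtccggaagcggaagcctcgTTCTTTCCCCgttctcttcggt
Rps6 (chr4:86857348-86857397, minus strand): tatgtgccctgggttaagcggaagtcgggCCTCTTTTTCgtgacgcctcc
Rps4x (chrX:102189372-102189421, minus strand): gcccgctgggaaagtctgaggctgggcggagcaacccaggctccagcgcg
Rpl7l1 (chr17:46782637-46782686, minus strand): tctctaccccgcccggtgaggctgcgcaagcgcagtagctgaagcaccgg
The 48 members with a run had a median level of 1751 FPKM, and the 12 without had one of 1104 FPKM, with ranges of 13.4 to 6443 and 41.9 to 2494 FPKM. A match or its absence describes these letters alone.

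In these spleens the 80 members held between 14.99% (control 1) and 21.7% (HFD 3) of all FPKM in a library. Group means were 17.0% ± 1.73 (SD, n = 3) in controls, 19.8% ± 1.73 with AOS, 20.03% ± 2.66 with HFD and 18.6% ± 1.39 with HFD+AOS. They were 18.8% ± 0.592 with HFD+AOS-FMT and 19.8% ± 0.718 with HFD+control-FMT. This share moved with that of haemoglobin, the oxygen carrier of red blood cells, whose 12 listed genes took from 10.8% (HFD 3) to 34.4% (control 1). Across the 18 libraries Pearson's r between both shares was -0.87 and Spearman's rho -0.85, a description only, since both are parts of the same total. Leaving haemoglobin out, the members held 22.0% to 26.1% of the rest. The mean log2(FPKM + 1) of the 80 genes, which weights every gene alike, ran from 10.03 (HFD+AOS 2) to 10.34 (AOS 3), and its r with the haemoglobin share was -0.11. In bulk tissue, fewer cells of a type and less RNA per cell cannot be told apart.

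**Figure D1:**
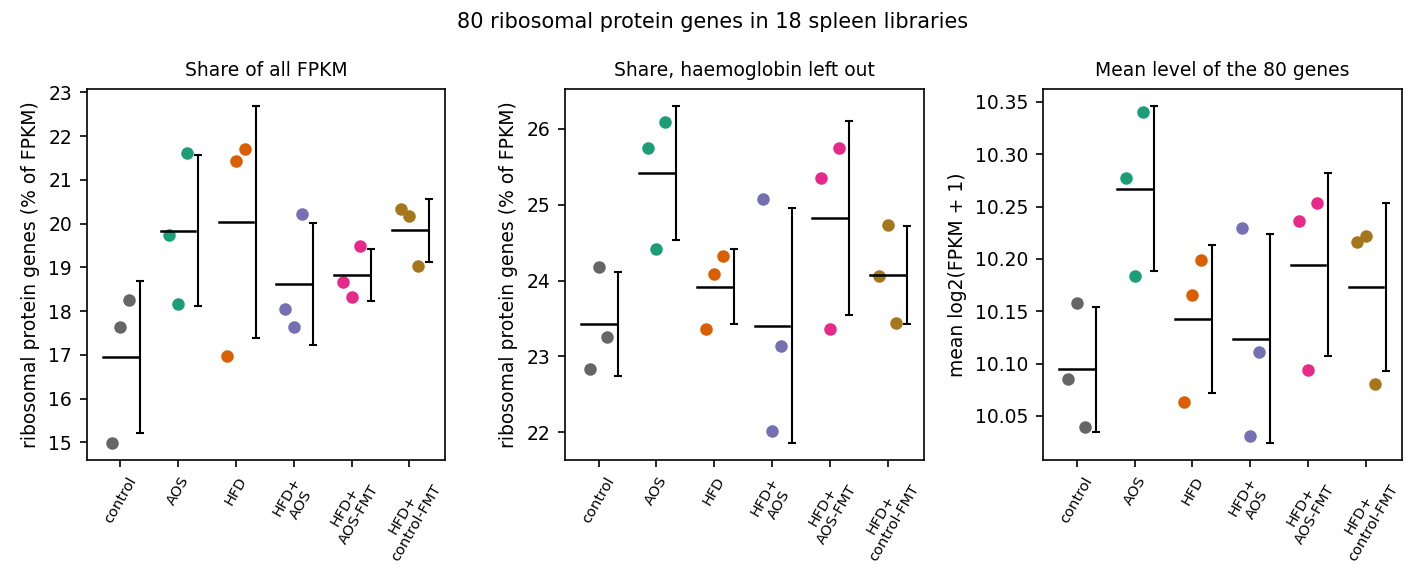
Share of the 80 ribosomal protein genes in all FPKM (left), in FPKM without haemoglobin genes (middle) and their mean log2(FPKM + 1) (right), by group. Points are libraries, horizontal lines are group means and bars are ± SD (n = 3). The axes do not start at 0. In the left panel the libraries span 14.99% to 21.7%, and in the right panel all 3 AOS libraries lie above all 3 controls.

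Of the libraries, control 1 stood apart by its neutrophil genes. The summed level of 7 neutrophil markers, such as S100a8 and Elane, was 15230 FPKM there, 4147 in control 2, 793 in control 3 and between 360 and 1431 in the other 15. Genes of a spleen were present throughout: 7 B cell markers summed to 1452 to 2973 FPKM and 7 T cell markers to 176 to 465. Column totals ran from 627964 to 831448 FPKM, and the reads behind them are unknown. The members' counts and medians in comparisons that use the controls are therefore also given without control 1.

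Single members differed in level from a few FPKM in the lowest to 6443 in the highest. Rps27, a zinc-finger protein of the small subunit, was highest, with a mean of 6443 FPKM over the 18 libraries and a range of 5119 to 8418. Rpl23a, which sits at the exit of the large subunit's peptide tunnel, had a mean of 3622 FPKM. Rps12 followed with 3457 FPKM, Rps26 with 3382 and Rpl41 with 3144. Rpl41 encodes a tiny basic peptide at the interface of the subunits. The ranges of these 4 over the libraries overlapped (2248 to 3973 FPKM over all of them), so their order is not fixed, while the lowest Rps27 value lay above all of them.

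The P stalk genes were also abundant and close to each other. Rplp1 had a mean of 2770 FPKM, Rplp2 of 1994 and Rplp0 of 1984. P1 and P2, encoded by Rplp1 and Rplp2, are small acidic proteins that attach to P0. The libraries of Rplp2 (1431 to 2320 FPKM) covered those of Rplp0 (1817 to 2235), and Rplp1 ranged over 2191 to 3315.

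At the lower end stood Rpl29 with 4.84 FPKM, Rpl34 with 13.4, Rps6 with 36.1, Rpl7l1 with 41.9 and Rps27l with 116. The first 3 encode core subunit proteins, and Rps6 is the classic substrate of the S6 kinases. Where a row shares sequence with other transcripts, reads could have been assigned to those, and how the authors' counting split them is not stated by the authors' labels. Rpl34 shares 50.6% of its 50-base words with Rpl34-ps1, annotated as a processed pseudogene, and the row of that copy had a mean of 2631 FPKM against 13.4 for Rpl34. For Rps6 the share with Rps6-ps4 was 84.6%. Where the reads of these rows went was not tested, and their levels are uncertain. Over all 80 members the median share of 50-base words found in transcripts of other genes was 55.6%, up to 98.6% (Rps27, with the retrotransposed copy Rps27rt, whose own row was at 0 in every library). Across members Spearman's rho between mean FPKM and the shared percentage was 0.18, and between mean FPKM and transcript length -0.20. These are descriptions over 80 genes of the same libraries. Rps15a (123 FPKM) and Rps20 (193 FPKM) have long annotated transcripts of 5179 and 3706 bases, against a median of 795.

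Paralogues, the second copies that some ribosomal proteins have, were mostly below their parents. Rpl22, an RNA-binding protein needed for the development of T cells, had a mean of 232 FPKM, and its paralogue Rpl22l1 had 183. Their libraries ranged over 205 to 253 and 148 to 207 FPKM, so the 2 levels overlapped only at their edges. Rpl36al, on chromosome 12, had 429 FPKM against 1382 for the X-linked Rpl36a. Rps27l had 116 FPKM against 6443 for Rps27. Rpl7l1, a nucleolar relative of Rpl7 that is not a part of the mature ribosome, had 41.9 FPKM against 1672. The paralogues known from muscle and testis, Rpl3l, Rpl10l and Rpl39l, had means of 0.436, 0.0567 and 0.252 FPKM, and their parents Rpl3, Rpl10 and Rpl39 had 1013, 2317 and 1107.

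**Figure D2:**
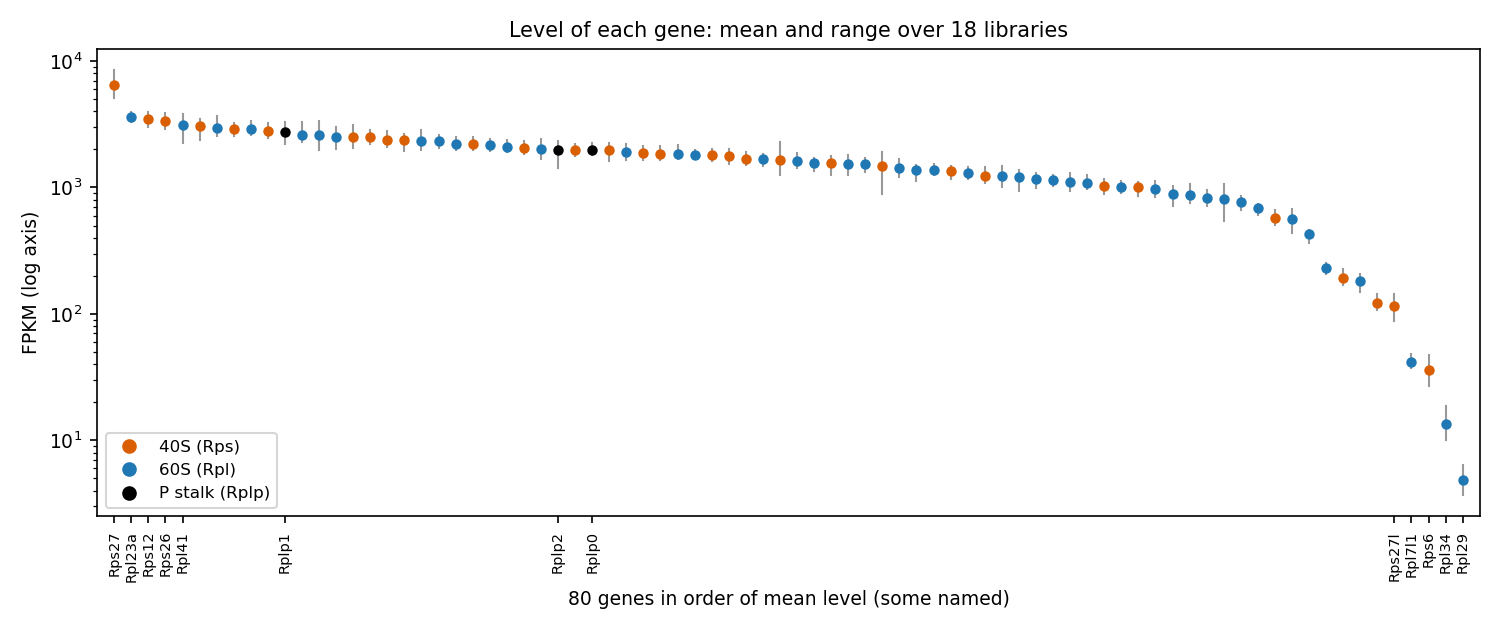
Mean FPKM (log axis) of each of the 80 genes over 18 libraries, in order of level. Points are means, coloured by subunit, and grey lines run from the lowest to the highest library. Names mark the 5 highest and 5 lowest genes and the P stalk. Rps27 stands at 6443 FPKM, and 5 genes, from Rps27l at 116 to Rpl29 at 4.84, form the lower end.

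The members moved together from library to library. Within groups, the deviations of 2 members from their group means had a median correlation of 0.58 over all pairs, and 96.5% of pairs were above 0. A first component took 48.3% of the members' variance and a second 17.5%. These values share each library's total, and no like values were computed for other genes, so they are given as a description. The SD within groups had a median of 0.104 over the members on the log2 scale, against 0.147 over all genes tested, of which 23.3% lay under the members' median. Most members are abundant, and the genes tested were not matched to them for level.

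Some members departed from the others. The SD over the 18 libraries of a gene's log2 level minus the mean of all members was 0.275 for Rps29, 0.224 for Rps6, 0.212 for Rpl36, 0.205 for Rps28 and 0.190 for Rps27, against a median of 0.074. Except for Rps6, with 878 bases, these are among the shortest transcripts of the set, at 345 to 392 bases, and Spearman's rho between the departure and transcript length over 80 members was -0.41, a description only. Rps29 shows what this means: its controls were 1265, 1632 and 918 FPKM, its HFD libraries 1161, 1614 and 883, and its HFD+control-FMT libraries 1560, 1910 and 1492. The lowest library, HFD 3, was the one with the highest share of all 80 members together, and with the lowest haemoglobin share (10.8%). Its mean log2 level of the 80 members was 10.20, against 10.34 in AOS 3.

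**Figure D3:**
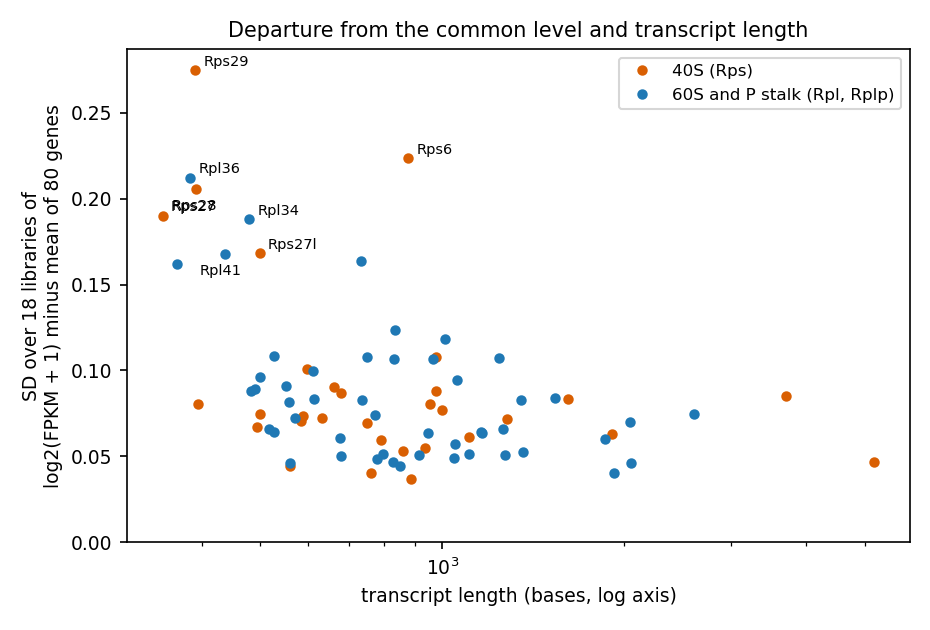
SD over 18 libraries of each gene's log2(FPKM + 1) minus the mean of the 80 genes, against transcript length (bases, log axis). Points are genes, coloured by subunit. Rps29 (0.275), Rpl36 (0.212), Rps28 (0.205) and Rps27 (0.190) stand high at the short end, and Rps6 (0.224) stands apart at 878 bases.

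With AOS and no diet nearly all members lay above their control levels. They were higher with AOS than in controls for 79 of 80 genes, all 49 of the 60S subunit with its stalk and 30 of 31 of the 40S subunit, with a median difference of 0.16 on the log2 scale against 0.05 over all genes tested. No member passed adjusted p 0.05 in limma, where 0% of all genes did. At an unadjusted p under 0.05 there were 31 of 80 members, where 15.4% of all genes were, and the lowest adjusted p of a member was 0.162. That count was 5 with scaling by median ratios (13.7% of all genes), 13 with quantile normalization (14.4%) and 19 with haemoglobin left out (13.5%). It was 12 without AOS 3 (8.78%), 15 without control 3 (24.3%), 17 without AOS 1 (10.2%) and 19 without control 1 (10.4%). It rose to 38 without control 2 (14.8%) and to 44 without AOS 2 (16.2%). Differences of single genes ran from -0.13 (Rps6) to 0.49 (Rpl36), with a median SE of 0.087.

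Rpl27a, a large subunit protein, had 1135, 1199 and 1111 FPKM in controls and 1364, 1319 and 1486 with AOS. Every AOS library lay above every control, and the difference was 0.27 ± 0.0793 (SE; limma, adjusted p = 0.162, n = 3 and 3). Rpl13, also of the large subunit, had 1922, 1959 and 1950 FPKM in controls and 2367, 2117 and 2372 with AOS, a difference of 0.23 ± 0.0693 (limma, adjusted p = 0.168). Its controls lay close together, and again the groups did not overlap. Among the stalk genes, Rplp1 differed by 0.23, Rplp2 by 0.20 and Rplp0 by 0.15, and the 3 had limma adjusted p of 0.326, 0.479 and 0.344.

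In all, 43 members had 3 AOS libraries above 3 controls, where 11.7% of all genes tested did, and 0 had the reverse, against 5.1%. The count rests on how libraries are scaled. It was 28 with haemoglobin left out (6.66% of all genes) and 7 with scaling by median ratios (7.25%), while the number of members higher with AOS was 77 under each of these and 70 with quantile normalization. The median difference was 0.10 under the first 2 and 0.08 with quantile normalization. Without control 1 the median difference was 0.17, 78 members were higher, and 47 did not overlap (15.9% of all genes). Other genes moved with this comparison: the 7 neutrophil markers were lower in AOS, with a median of -2.02 (sums of 793 to 15230 FPKM in controls and 555 to 1431 with AOS), and the 6 plasma cell markers, such as Jchain and Xbp1, were higher, with a median of 0.92 (419 to 850 against 945 to 1115 FPKM). All 7 T cell markers were higher, with a median of 0.42 (176 to 302 against 325 to 363 FPKM), and all 9 erythroid markers were lower, with a median of -0.68 (117700 to 177400 against 82480 to 116900 FPKM). No gene of these 4 lists passed the test, and their part in the members' levels was not tested.

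With the diet alone, Rps27 had the lowest adjusted p of the members and did not pass. Of all genes tested 2.75% passed in HFD against control, and 0 of 80 members did, with 6 at an unadjusted p under 0.05, where 28.6% of all genes were. The members' median difference was 0.05 against 0.10 over all genes, and 57 were higher with HFD. Without control 1 the median was 0.04, with 62 higher and 18 lower and 1 at an unadjusted p under 0.05 (13.5% of all genes). Single libraries moved these values: the median was 0.02 without HFD 3, 0.03 without control 3, 0.08 without HFD 1 and 0.08 without control 2. The count at an unadjusted p under 0.05 was 14 without HFD 1 (33.3% of all genes), 2 without HFD 3 (19.9%) and 1 without HFD 2 (17.8%). The direction depends on the scaling. With median ratios, under which the median of all genes moved from 0.10 to -7e-04, the members' median was -0.07 and 15 were higher. The count of genes called was itself not stable: leaving out 1 library gave between 0 and 3758 genes. Members whose groups did not overlap numbered 3 higher (Rps27, Rpl9 and Rps13), against 14% of all genes, and 0 lower, against 5.44%. Without control 1 these were 4 higher and 1 lower (16.1% and 7.38% of all genes), without HFD 1 they were 35 higher (30.2%), and without control 3 they were 6 higher and 9 lower (36.2% and 15.7%).

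Rps27 had 5119, 6118 and 6511 FPKM in controls and 6600, 8239 and 8418 with HFD. The groups met without overlapping, and the difference was 0.39 ± 0.117 (SE; limma, adjusted p = 0.0664). It passed in 2 of the 18 fits that leave out a library, at adjusted p = 0.0179 without control 3 and adjusted p = 0.0242 without HFD 1, with differences of 0.46 and 0.50, and without control 1 the difference was 0.29. Without HFD 1, Rps4x and Rps24 passed too, so 3 of 80 members did, where 1206 of all 12969 genes did. Without control 3, 2 members passed, where 3758 of all genes did. Rps4x, the X-linked small subunit protein, had 2100, 2371 and 2361 FPKM in controls and 2281, 2813 and 2736 with HFD, a difference of 0.19 with adjusted p = 0.131 in limma over all libraries. Rps24 had 2480, 2845 and 2618 FPKM in controls and 2664, 3210 and 3209 with HFD, a difference of 0.19 with limma adjusted p = 0.150. In both genes HFD 1 lay within the controls and the other HFD libraries lay above all of them. Beside these, 4 of 9 erythroid markers passed as lower, among them Trim10 by a log2 difference of -1.52 (adjusted p = 0.0443) and Epb42 by -1.25 (adjusted p = 0.0443), with sums of 117700 to 177400 FPKM in controls and 41680 to 164400 with HFD. The T cell markers Cd4, by 0.71 (adjusted p = 0.0443), and Cd3g, by 0.69 (adjusted p = 0.0452), were among 3 of 7 that passed as higher, with sums of 176 to 302 and 395 to 423 FPKM. Mki67, a marker of dividing cells, fell by 0.87 (adjusted p = 0.0452). All 7 neutrophil markers were lower, with a median of -2.06 and none past the test. Their sums were 793 to 15230 FPKM in controls and 600 to 1090 with HFD. These controls are the same as in AOS against control, where these markers were lower as well. The part of these cells in the members' levels was not tested.

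With AOS added to the diet, Rps27 lay below its HFD level. Its HFD+AOS libraries were 5500, 5180 and 5646 FPKM, each under all 3 HFD libraries, and the difference was -0.50 ± 0.117 (limma, adjusted p = 0.171). Libraries of the same number correlated at 0.191 to 0.268 in their deviations here, but HFD+AOS 3 and HFD 2, of unlike number, at 0.366. With the number as a block in the fit, the same difference of Rps27 had limma adjusted p = 0.0464. So 1 member passed, where 33 of all 12969 genes did. Fitted to these 2 groups alone with the block, adjusted p was 0.144. Without the block 0 members passed in limma (0% of all genes), and 7 of 80 had an unadjusted p under 0.05, where 15% of all genes had. That count was 3 without HFD 2 (8.33% of all genes), 2 without HFD 3 (10.2%), 2 without HFD+AOS 2 (9.61%) and 10 without HFD 1 (20.6%). The members' median difference was -0.03, the same as that of all genes, and 30 were higher and 50 lower, a split that turned to 44 higher with median ratios. Without HFD+AOS 2 the median was 0.02, with 49 higher, and it was -0.07 without HFD+AOS 1, -0.06 without HFD 1, -0.02 without HFD 2 and -0.0027 without HFD 3. Members that did not overlap were 2 higher (Rpl41 and Rps27l; 6.42% of all genes) and 3 lower (Rps27, Rps13 and Rps3a1; 9.57%). Rpl34 had 10.3, 10.2 and 14.1 FPKM with HFD and 18.6, 13.5 and 13.6 with HFD+AOS, a difference of 0.37 in overlapping groups (limma, adjusted p = 0.286). Rps24 and Rps4x differed by -0.19 and -0.18, each with adjusted p = 0.311 in limma. All 6 plasma cell markers were higher with HFD+AOS, with a median of 1.04 and sums of 1141 to 1932 against 484 to 832 FPKM. The 4 pancreas markers summed to 5832 FPKM in HFD+AOS 2, the library with the lowest mean of the 80 members, and to 4.95 to 2798 in the others. None of these passed, and their part was not tested.

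The interaction asks whether AOS made a different change on the diet than off it. Members had a median interaction of -0.19 against -0.09 over all genes, and 77 of 80 were below 0, with 0 past adjusted p 0.05 in limma (0% of all genes) and 25 at an unadjusted p under 0.05, where 15.9% of all genes were. Without control 1 the median was -0.18 against -0.05 over all genes, 77 were again below 0, 15 had an unadjusted p under 0.05 (9.74% of all genes), and Rps27 stood at -0.55. The count at an unadjusted p under 0.05 was 1 with median ratios (13.6% of all genes), 6 with quantile normalization (14.7%) and 12 without haemoglobin (12.7%). It was 9 without HFD+AOS 2 (12.1%), 11 without AOS 3 (10.7%) and 13 without HFD 3 (12.1%). Leaving out AOS 1 (12.9%) or control 3 (29%) gave 16, while the count rose to 32 without AOS 2 (15.5%) and to 37 without HFD+AOS 1 (10.8%). The size rests on the scaling: the median was -0.09 with median ratios, -0.11 with quantile normalization and -0.11 without haemoglobin, and 63 to 68 members stayed below 0. The interaction was -0.65 ± 0.166 for Rps27, -0.37 ± 0.112 for Rpl27a and -0.36 ± 0.117 for Rps13, all with limma adjusted p = 0.221. Rps27 differed by 0.15 with AOS off the diet and by -0.50 on it, and Rpl27a had 1240, 1008 and 1214 FPKM with HFD+AOS against 1182, 1232 and 1263 with HFD. Markers of other cells had interactions too: the median was -0.69 for the T cell markers, all 7 of them below 0 and at an unadjusted p under 0.05, and -0.49 for the B cell markers, with 5 of 7. All 9 erythroid markers were above 0, with a median of 1.23 and 5 at that level, and so were all 7 neutrophil markers, with 0 at that level. None passed in limma after adjustment, and their part in the members' values was not tested.

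**Figure D4:**
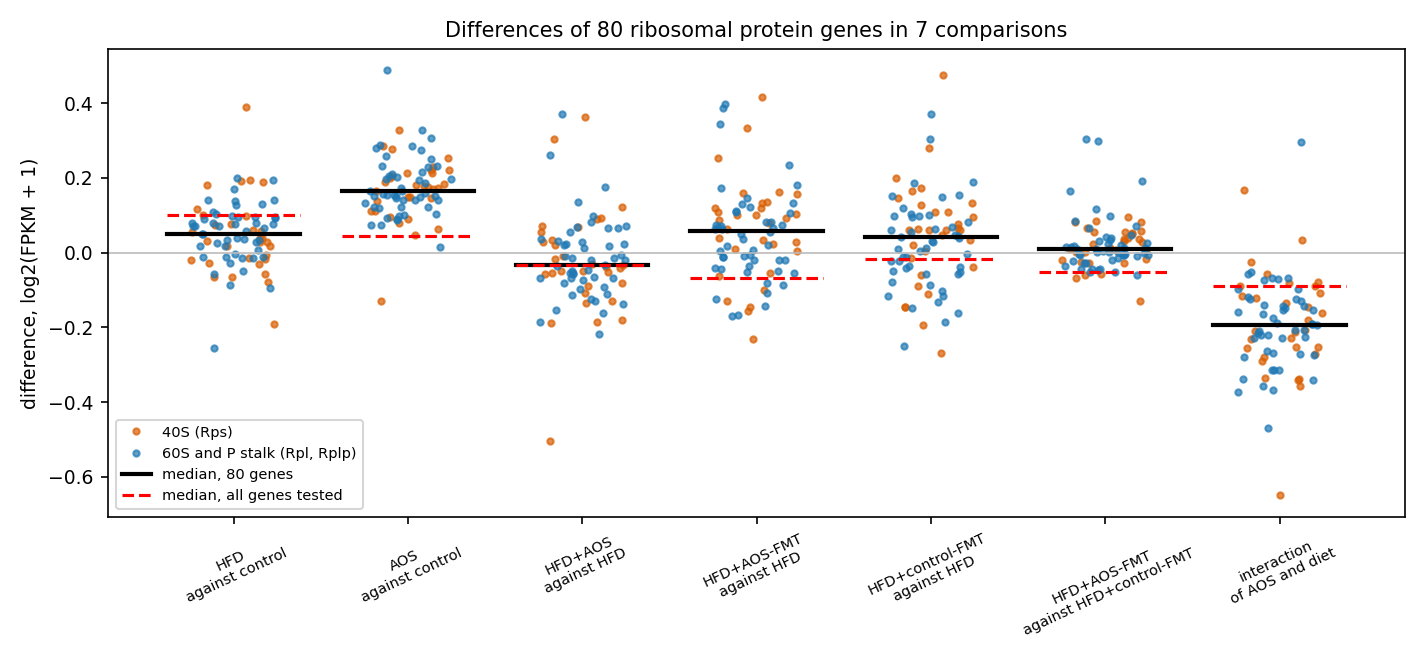
Differences on the log2(FPKM + 1) scale of the 80 genes in each of 7 comparisons. Points are genes, black lines their median and red dashed lines the median of all 12969 genes tested. With AOS against control 79 points lie above 0 around a median of 0.16, and Rps27 is the lowest point with HFD+AOS against HFD (-0.50) and in the interaction (-0.65).

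After microbiota transplant on the diet, 3 genes with short transcripts had the smallest p. In HFD+AOS-FMT against HFD 0 members passed in limma (0% of all genes) and 5 of 80 had an unadjusted p under 0.05, where 13.6% of all genes had. The median difference was 0.06 against -0.07 over all genes, and 53 were higher. Without HFD 1 the median was 0.0038, with 42 higher and 38 lower, and 12 had an unadjusted p under 0.05 (18.4% of all genes). It was 0.04 without HFD+AOS-FMT 1, where 0 had one (7.39%), and 0.03 without HFD+AOS-FMT 3. Without HFD+AOS-FMT 2 the median was 0.10, and 8 had one (11.6%). With HFD+AOS 2 left out of the fit that count was 3 (12.5%). Scaling by median ratios gave a median of 0.13 and quantile normalization one of 0.01. Rpl41 had 2619, 2660 and 2548 FPKM with HFD and 3729, 3031 and 3507 with HFD+AOS-FMT, a difference of 0.39 ± 0.136 (limma, adjusted p = 0.270). Rpl36 had 731, 631 and 804 FPKM with HFD and 973, 844 and 1036 with the transplant, a difference of 0.40 ± 0.163 (adjusted p = 0.322). Rpl38, known for its part in body patterning of the mouse embryo, had 2485, 2189 and 2050 FPKM with HFD and 3035, 2537 and 2963 with the transplant, a difference of 0.34 ± 0.144 (adjusted p = 0.331). In these 3 genes every transplant library lay above every HFD library. In all 9 members did so, against 6.25% of all genes, and Rpl14 alone lay below, against 16.7%. With median ratios 19 members lay above (10.8% of all genes). All 9 erythroid markers were higher, with a median of 0.89 and none past the test, and their part was not tested.

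The transplant from control donors was set against the same HFD libraries, so both comparisons share them. In HFD+control-FMT against HFD 0 members passed in limma (0.0154% of all genes) and 5 of 80 had an unadjusted p under 0.05, where 4.63% of all genes had. Their median was 0.04 against -0.02, and 49 were higher, or 32 with quantile normalization. The direction rests on single libraries: without HFD 1 the median was -0.0017, with 39 higher and 41 lower, without HFD+control-FMT 1 it was 0.0029, with 40 each way, without HFD+control-FMT 2 it was 0.01, and without HFD+control-FMT 3 it was 0.08. On leaving out a library, the count at an unadjusted p under 0.05 ran from 2 to 10. It was 2 without HFD 3 (3.99% of all genes) or HFD+control-FMT 2 (3.22%). Leaving out HFD 1 (7.44%) or HFD+control-FMT 3 (6.87%) gave 10. Rpl41 had 3550, 3630 and 2985 FPKM, a difference of 0.37 ± 0.136 (limma, adjusted p = 0.979), and lay above HFD in every library. Rpl9 and Rps4x each differed by -0.19 (adjusted p = 0.999). Members that did not overlap numbered 8 higher (4.57% of all genes) and 1 lower, Rps13 (5.59%).

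The transplants were also set against each other. With HFD+AOS-FMT against HFD+control-FMT 0 passed in limma (0.00771% of all genes), and 1 had an unadjusted p under 0.05, where 10.5% of all genes had. The median was 0.01 against -0.05, and 50 were higher, or 73 with median ratios. The median was -0.03 without HFD+control-FMT 3, -0.02 without HFD+AOS-FMT 3 and -0.0043 without HFD+AOS-FMT 1, and it was 0.04 without HFD+control-FMT 1 or 2 and 0.06 without HFD+AOS-FMT 2. Rpl29 had 5.69, 4.99 and 5.22 FPKM with AOS donors and 5.01, 3.69 and 3.75 with control donors, a difference of 0.30 with a 95% interval of 0.01 to 0.59 (limma, adjusted p = 0.462). Rpl36 differed by 0.30 and Rplp1 by 0.19, with adjusted p of 0.542 and 0.570. Only Rpl37 had groups that did not overlap, as higher (7.8% of all genes), and 0 members were lower (15.6%). An F test over all 6 groups found 0 members (0.116% of all genes) and 6 at an unadjusted p under 0.05 (22% of all genes), led by Rps27 (limma, adjusted p = 0.143).

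**Figure D5:**
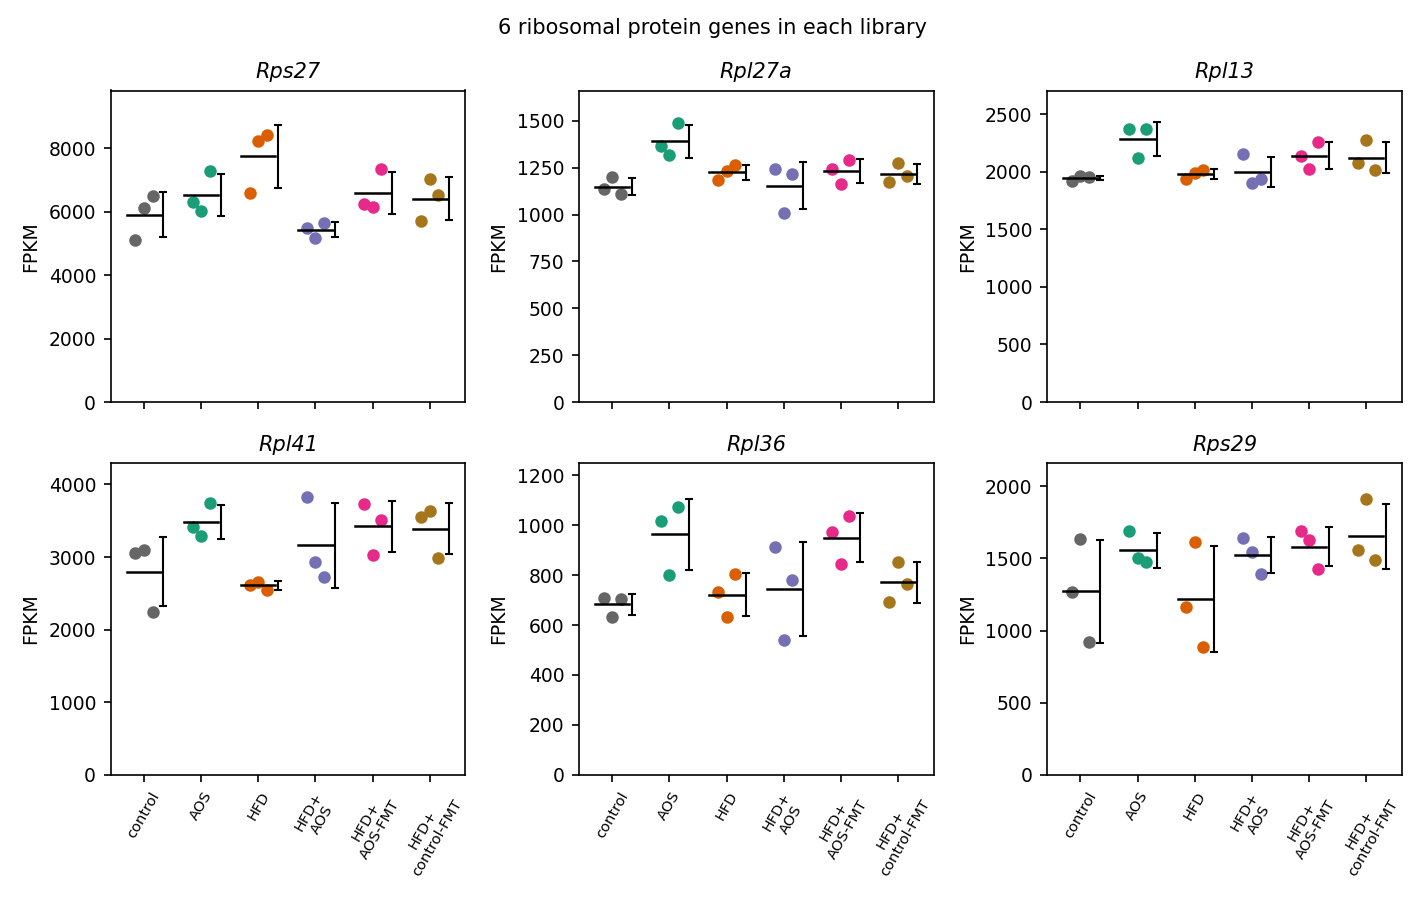
FPKM of 6 members in each library, by group, on axes that start at 0. Points are libraries, lines are group means and bars ± SD (n = 3). Rps27 reaches 6600 to 8418 FPKM with HFD and 5180 to 5646 with HFD+AOS, Rpl27a, Rpl13 and Rpl36 have all AOS libraries above all controls, and Rpl41 with HFD (2548 to 2660) lies under both transplant groups.

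Genes that work with the ribosome were mostly higher with AOS as well, as were 8087 of all 12969 genes tested. Rpsa, Fau and Rack1, which are ribosomal proteins with symbols of another form, had means of 1861, 2229 and 1101 FPKM. Of 50 ribosome biogenesis genes 48 were higher, with a median of 0.12. Of 15 genes of RNA polymerase I, the enzyme that makes ribosomal RNA, and of its factors, 14 were higher, with a median of 0.16. The 15 elongation factor and other oligopyrimidine genes in the table had 13 higher and a median of 0.12, 28 initiation factors had 25 and 0.10, and 22 genes of mTOR and S6 kinase signalling had 14 and 0.04. Of 78 mitochondrial ribosomal proteins, which form a separate ribosome, 68 were higher, with a median of 0.11. None of the genes on these 6 lists passed adjusted p 0.05 in limma in this or any other comparison, and at an unadjusted p under 0.05 with AOS they numbered 14 of 50, 6 of 15, 1 of 15, 5 of 28, 2 of 22 and 4 of 78, where 15.4% of all genes were.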

How the data were processed

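Per the submitters' processing notes, reads were aligned with Bowtie 0.12.2 to mm10. The authors scaled the reads to transcript length and library size and deposited 1 table of such FPKM values, a unit inferred from the values (RPKM would look the same). Counting program and annotation: not given in the sources used here. So depth and counting error are unknown. Members and gene lists were chosen with earlier results of these data known. Values were analysed as log2(FPKM + 1), which understates changes of low genes. The 12969 genes whose mean reached 1 FPKM in any group entered limma 3.58.1 (trend, robust) over 18 libraries with 12 residual degrees of freedom, with p-values adjusted (Benjamini-Hochberg, 0.05) separately for each comparison. The fit was tested on simulated data with noise drawn independently for each gene and added changes larger than the members' median differences. The members moved together, so that test does not cover their counts. Named were members called or, with none, the 3 of smallest p in each comparison, the 5 highest, 5 lowest and 5 most departing members, stalk genes, paralogues and, from lists with a call, 2 genes of smallest p. Others named were chosen after their values were seen. Some genes are left out of the text and are not reported here. Deviations of same-numbered libraries from their group means correlated at 0.236, 0.268 and 0.191 in HFD+AOS against HFD. They correlated at 0.151, 0.038 and 0.36 in HFD against control, and at 0.508, 0.392 and -0.106 between the transplant groups. Libraries of unlike number reached 0.366 (HFD+AOS 3 with HFD 2). Whether the numbers mark a pairing is therefore not known. Transcripts and positions came from GENCODE vM21 (GRCm38). Alternatives were a pseudocount of 0.1, other filters, median ratios, quantile normalization, haemoglobin left out, fits to compared groups, the block and leaving out each library.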

Additional observations from a re-analysis of the deposited data

How the results depend on the processing

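Of 80 members, 0 passed in any comparison under any setting, with these exceptions. The replicate block gave 1 in HFD against control (Rps27, limma adjusted p = 0.0231), where 1842 of all 12969 genes passed. It gave 1 in HFD+AOS against HFD (limma adjusted p = 0.0464), where 33 genes passed. Whether the numbers pair the libraries is not known. Leaving out 1 library gave 0 to 3 members in HFD against control, where it gave 0 to 3758 of all genes. The block changed no other call of a member. The members' median difference in HFD against control was -0.065 with median ratios, against 0.050. In AOS against control it was 0.0819 with quantile normalization, against 0.165. The median interaction, -0.193, was -0.087 with median ratios, -0.1086 with quantile normalization and -0.1129 without haemoglobin. The other settings moved these medians by less than the spread between libraries, among them the members of at least 600 transcript bases, a choice made after seeing the data. Over all genes, calls in HFD against control ranged from 0 to 1842 over settings other than leaving out a library, against 357. With the depth unknown, no counting limit can be given. The cause of these shifts was not tested.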
